A study of Mus musculus with 6 samples.

Results

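A set of 10 genes for LIM domain proteins of the actin cytoskeleton is described here in mouse embryonic stem (ES) cells with and without a Prmt6 expression plasmid. They were chosen by name, with earlier results of these data known, as Fhl1, Fhl2, Fhl3, Csrp1, Csrp2, Pdlim1, Pdlim5, Pdlim7, Lmo7 and Lima1. All 10 were measured, out of 19938 genes in all. Each gene was read from its probe set with the highest mean signal among those that name no other gene. Both groups were HM1 cells, an ES cell line, grown in 15% serum with leukemia inhibitory factor (LIF) at 1000 U/ml and selected with 1 ug/ml puromycin over 3 days. The control group (3 arrays) carried the empty vector pCAGIP.puro, and the Prmt6 overexpression group (3 arrays) carried the same vector with mouse Prmt6 cloned into it. The labels do not give the promoter that drives Prmt6, nor whether replicates were separate cultures, and the p-values therefore reflect only how these samples vary, which could be technical.

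A LIM domain is a pair of zinc fingers that binds other proteins. In the proteins described here it is joined to regions, or bound to partners such as alpha-actinin, that hold it on actin filaments, stress fibres and cell junctions. Several of these proteins also enter the nucleus and act on transcription, and many are best known from smooth, skeletal and heart muscle. Prmt6, the gene on the plasmid, encodes an arginine methyltransferase that modifies histones.

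With the Prmt6 plasmid, 6 of the 10 LIM genes rose, 0 fell and 4 did not pass the test (limma over all genes, adjusted p under 0.05 as the threshold). The largest rise was that of Csrp1, 4.90-fold, followed by Fhl2 (3.55-fold), Pdlim7 (2.03-fold), Fhl1 (1.75-fold), Pdlim5 (1.41-fold) and Fhl3 (1.32-fold). Over all 19938 genes, 7.05% rose and 3.25% fell, 10.3% together. At an unadjusted p under 0.05, 6 of the 10 were higher and 0 were lower, against 14.1% and 10.4% of all genes. The median difference of the 10 genes, overexpression minus control, was 0.45 on the log2 scale, and that of all genes was 0. Rises of at least 2-fold were found in 3 of the 10 genes and in 1.03% of all genes. The 3 overexpression arrays lay wholly above the 3 control arrays in 7 of the 10 genes, as in 17.0% of all genes. Because the 10 genes were chosen with earlier results known, these shares describe them and test nothing.

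**Figure D1:**
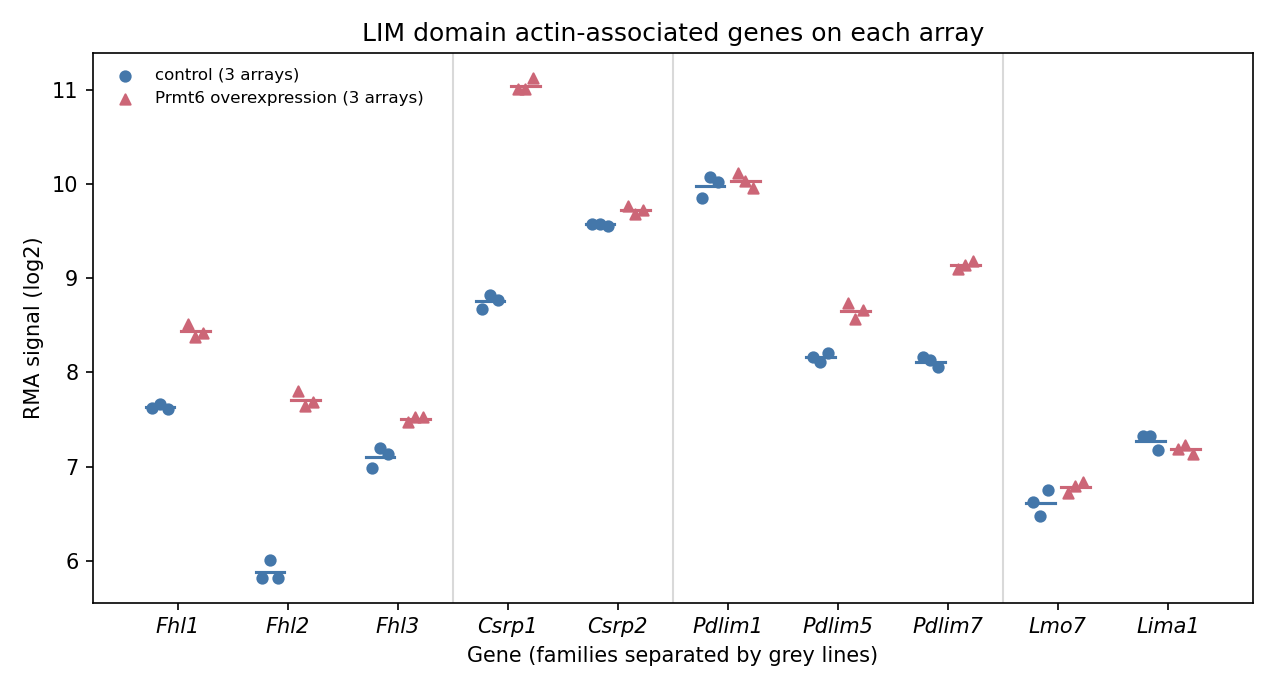
RMA signal (log2) of the 10 LIM genes on each array, with control arrays as circles, Prmt6 overexpression arrays as triangles and group means (n = 3) as short lines. The groups are furthest apart for Csrp1 (8.76 against 11.05) and Fhl2 (5.88 against 7.71) and overlap for Pdlim1, Lmo7 and Lima1, and heights of different genes cannot be compared because they come from different probes.

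Prmt6 itself had control signals of 6.84, 6.58 and 7.12 (log2), against 7.32, 7.40 and 7.33 with the plasmid. Its rise of 1.42-fold (log2 difference 0.50 ± 0.13, SE, limma adjusted p = 0.0406) was smaller than those of Csrp1, Fhl2, Pdlim7 and Fhl1. Its call ended without control replicate 1 (0.116) or 2 (0.0954), without overexpression replicate 1 (0.0893), 2 (0.119) or 3 (0.0788) and with a replicate block (0.0615). Array medians over all probe sets lay between 5.54 and 5.62.

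In the same arrays, markers of ES cells and of other cell types were read as lists. Beside them, 7.05% of all genes rose and 3.25% fell. Of 10 ES cell markers, 0 rose, 3 fell and 7 did not pass, and their summed linear signal ran from 20778 to 21766 in control and from 20620 to 20743 in overexpression. The falls were those of Tdgf1, a Nodal co-receptor (-0.35 ± 0.072, log2, SE), and of the transcription factors Nanog (-0.34 ± 0.068) and Sox2 (-0.29 ± 0.076), and 0 of the 3 passed without control replicate 1, 2 or 3 and 1 without overexpression replicate 2. Pou5f1, the gene of the defining ES cell factor Oct4, was at 11.14, 11.20 and 11.06 in control and 11.23, 11.32 and 11.41 in overexpression. Its difference was upward, at 0.19, without passing (limma adjusted p = 0.19). Of 13 measured fibroblast markers, 7 rose (2 without control replicate 1, 4 without control replicate 2 or overexpression replicate 2, 3 without control replicate 3 or overexpression replicate 3) and 6 did not pass, and their sum ran from 619.7 to 649.3 in control and from 882.8 to 978.5 in overexpression. Of 11 smooth muscle markers, 4 rose and 7 did not pass, with a sum from 771.3 to 799.1 in control and from 5039 to 5468 in overexpression. Only 3 rose when any 1 array was left out or with quantile normalization, where Smtn lost its call. Acta2, the actin of smooth muscle, and Tagln, an actin-binding protein of the same tissue, rose 23.0-fold and 9.78-fold, while Myh11, the defining myosin of smooth muscle, was between 5.21 and 5.26 on all 6 arrays. Acta2 and Tagln, at mean log2 signals of 11.15 and 11.21 in overexpression, made up most of the smooth muscle sum there. All these sums add signals of different probes and lean on the brightest genes of a list. Of 12 markers of skeletal and heart muscle, the actins Actc1 and Acta1 rose, Ttn fell and 9 did not pass, and Myod1 and Myog, which define skeletal muscle, did not pass at log2 signals of at most 5.76 and 5.19. Defining fibroblast genes differed among themselves, with Col1a1 and Col1a2 rising by 1.34 and 0.98 and Thy1 and Lum at 0.043 and 0.063 without passing. Thy1 had log2 signals of 5.76 to 6.08 over the 6 arrays. Lum had only 2.48 to 2.74, which cannot be told from background. The part of these cell types in the LIM gene results was not tested, and in bulk samples more cells of a type and more RNA per cell cannot be told apart.

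**Figure D2:**
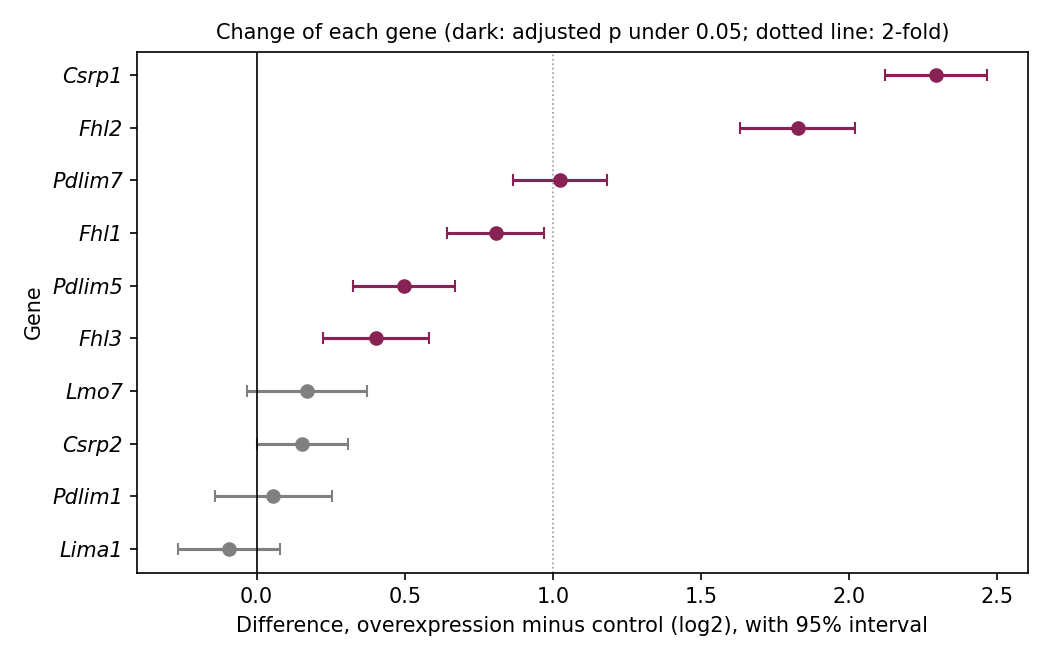
Difference of each LIM gene, overexpression minus control (log2, n = 3 arrays per group), with limma's 95% interval and dark points for genes past the threshold. Csrp1 lies at 2.29, Fhl2 at 1.83 and Pdlim7 at 1.02, and the intervals of Lmo7, Csrp2, Pdlim1 and Lima1 include 0.

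The Csrp family encodes small proteins with a pair of LIM domains that bind alpha-actinin and zyxin, and Csrp1 is abundant in smooth muscle. Csrp1 was read at log2 signals of 8.68, 8.82 and 8.77 in control and 11.01, 11.01 and 11.13 in overexpression. The groups were far apart, with every overexpression array more than 2 log2 units above every control array. The difference was 2.29 ± 0.076 (SE, limma adjusted p = 1.14e-06), the 19th largest rise of all genes. Csrp2, its paralog, which also marks smooth muscle and cross-links actin, was read at 9.58, 9.58 and 9.56 in control and 9.77, 9.68 and 9.73 in overexpression. The Csrp2 arrays did not overlap between groups, but the difference of 0.15 (95% interval -0.00022 to 0.31) did not pass (adjusted p = 0.205). Csrp3, the member of this family known from heart and skeletal muscle, was at 0.24 without passing (0.103).

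The gap between Csrp1 and Csrp2 was read on each array as the difference of their log2 signals, so that array-wide effects cancel. It was -0.82 ± 0.074 in control and 1.32 ± 0.08 in overexpression (SD, n = 3), a change of 2.14. A comparison of the 7 gene pairs within families was chosen after the values were seen. Each pair was ordered with the gene of the larger rise first, so every change is upward by that choice. In all 7 pairs the ratios of the groups did not overlap. Single genes separated this way in 17.0% (higher) and 12.7% (lower) of all genes, and the share over other gene pairs was not computed. Pairs within the FHL and Pdlim families share genes, so the 7 are not separate results. The exact permutation test, two-sided, gave p = 0.1 for each (0.1 adjusted over the 7). That is the smallest p that 3 against 3 arrays allow, so these designs cannot pass the threshold.

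**Figure D3:**
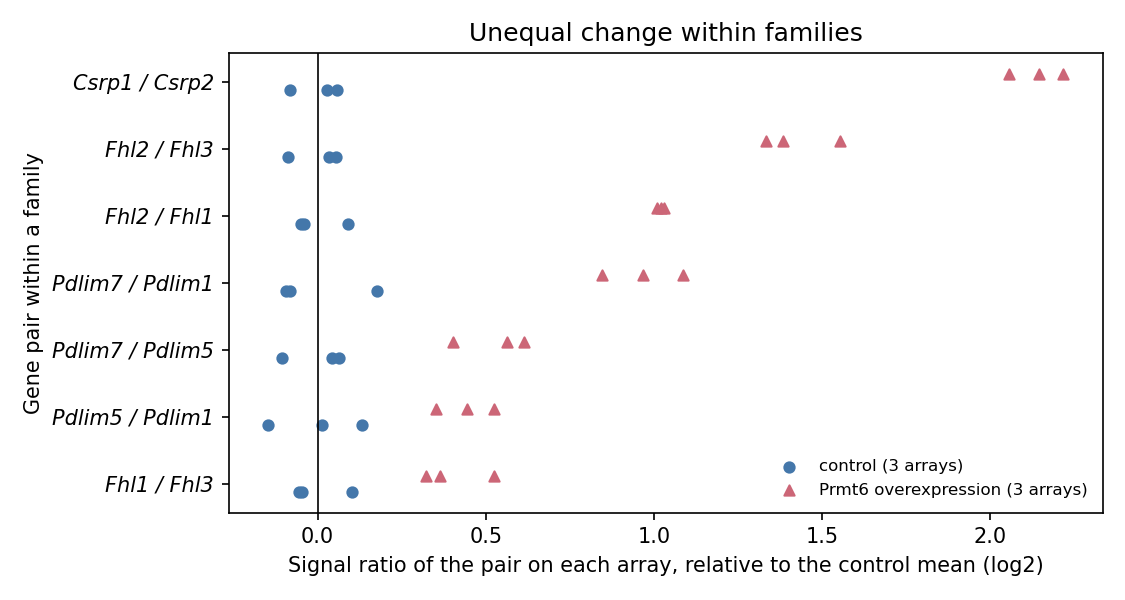
Ratio of the signals of 2 genes of a family on each array (log2), set to 0 at the control mean, with control arrays as circles and Prmt6 overexpression arrays as triangles. Csrp1 over Csrp2 moved most, by 2.14, and Fhl1 over Fhl3 least, by 0.40. No pair's groups overlap, and pairs within the FHL and Pdlim families share genes.

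The FHL family consists of proteins made almost wholly of LIM domains. Fhl2, which is abundant in heart and binds beta-catenin and other transcription regulators, was read at log2 signals of 5.82, 6.01 and 5.82 in control and 7.80, 7.64 and 7.69 in overexpression. The difference was 1.83 ± 0.084 (SE, limma adjusted p = 5.97e-06), the 44th largest rise of all genes. Fhl1, a protein of skeletal muscle whose human gene is mutated in inherited myopathies, was read at 7.62, 7.67 and 7.61 in control and 8.52, 8.38 and 8.42 in overexpression. All 3 overexpression arrays were above the control arrays, by 0.81 ± 0.072 on average (adjusted p = 0.000222). Fhl3, a skeletal muscle protein of the same family, was read at 6.99, 7.20 and 7.13 in control and 7.47, 7.53 and 7.53 in overexpression. It rose least of these 3 genes, by 0.40 ± 0.079 (0.0135), and the call was lost with control replicate 1 left out (adjusted p = 0.0629) and with overexpression replicate 2 left out (0.0523).

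The log2 ratio of Fhl2 to Fhl1 moved from -1.75 ± 0.078 in control to -0.73 ± 0.01 in overexpression (SD, n = 3), a change of 1.02. That of Fhl2 to Fhl3 moved by 1.42 and that of Fhl1 to Fhl3 by 0.40. The remaining family members, Fhl4 and Fhl5, whose expression is known mainly from testis, were at 0.03 and 0.01 without passing.

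Promoter sequences were read because 6 of these genes rose together. RefSeq windows (GRCm38.p6) of 250 bases before to 50 after a transcript start were matched by symbol for 9 of the 10 genes (all but Csrp2), in 14 windows. They were searched on both strands for the CArG box, the site of serum response factor (SRF), for the TEAD motif GGAATG and for the AP-1 motif TGANTCA. The CArG box is its own reverse complement in pattern, so a match counts once. It was found in 3 of the 9 genes (Fhl1, Fhl2 and Lima1) and in 4 of the 14 windows, against 1.81% of 27025 genes and 1.63% of 32851 windows. TEAD and AP-1 motifs were found in 0 of the 14 windows, against 14.7% and 7.81% of all windows. The 120 bases before each start with a CArG box are shown 5′ to 3′ on the gene's strand, with the box in capitals, to compare the position of the box in a gene pair that rose and in Lima1, which did not pass.
Fhl2, upstream start, chr1:43196762-43196881, minus strand: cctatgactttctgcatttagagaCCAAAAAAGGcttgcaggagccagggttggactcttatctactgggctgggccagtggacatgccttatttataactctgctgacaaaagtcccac
Fhl2, downstream start, chr1:43163962-43164081, minus strand: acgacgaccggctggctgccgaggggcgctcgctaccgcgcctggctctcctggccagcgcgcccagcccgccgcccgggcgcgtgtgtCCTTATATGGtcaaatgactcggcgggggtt
Fhl1, chrX:56779563-56779682, plus strand: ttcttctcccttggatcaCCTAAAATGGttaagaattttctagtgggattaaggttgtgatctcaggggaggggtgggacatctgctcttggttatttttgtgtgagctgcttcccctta
Lima1, chr15:99820150-99820269, minus strand: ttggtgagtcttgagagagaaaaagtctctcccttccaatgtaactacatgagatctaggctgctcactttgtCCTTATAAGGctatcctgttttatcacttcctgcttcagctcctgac

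The box began at -96 and -31 from the start in the windows of Fhl2, at -102 in that of Fhl1 and at -47 in that of Lima1, counting the base before the start as -1. The other Fhl1 window and both Csrp1 windows held no match, nor did any window of Fhl3, Pdlim5 and Pdlim7, which also rose, or of Pdlim1 and Lmo7. This says only that these letters are not in those bases. A match is a description of the sequence, and binding was not measured. The RNA of the regulators of these sites was read on the same arrays, and their protein and activity were not measured. Srf was at 0.11 ± 0.085 (log2, SE) without passing (limma adjusted p = 0.499), and its actin-controlled coactivators Mrtfa and Mrtfb were at 0.017 and -0.14 without passing. Of the 10 actin-responsive regulators listed, 3 rose and 7 did not pass, where 7.05% of all genes rose. The rises were those of Tead4 (0.67 ± 0.091), of Wwtr1, the gene of the Hippo pathway coactivator TAZ (0.60 ± 0.077), and of Tead2 (0.51 ± 0.071), while Yap1 was at -0.033 without passing.

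The Pdlim family joins a PDZ domain, which binds alpha-actinin or tropomyosin, to LIM domains at the other end. Pdlim7, also called Enigma, was read at log2 signals of 8.16, 8.13 and 8.06 in control and 9.10, 9.14 and 9.18 in overexpression. The difference was 1.02 ± 0.07 (SE, limma adjusted p = 4.79e-05), with no overlap between the groups. Pdlim5, also called ENH, which brings protein kinase C to actin in heart muscle, was read at 8.16, 8.11 and 8.21 in control and 8.74, 8.57 and 8.66 in overexpression. It rose by 0.50 ± 0.076 (0.00419), and again every overexpression array was above every control array.

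Pdlim1, also called CLP36, which binds alpha-actinin on stress fibres, was read at 9.85, 10.08 and 10.02 in control and 10.12, 10.04 and 9.96 in overexpression. The groups overlapped and the difference of 0.057 (95% interval -0.14 to 0.25) did not pass (limma adjusted p = 0.755), and it was -0.01 without control replicate 1 and -0.0017 with quantile normalization. Pdlim1 was the only one of the 10 genes with a further probe set of its own, and that one gave 0.053 (adjusted p over all probe sets 0.703). The log2 ratio of Pdlim7 to Pdlim1 moved by 0.97, that of Pdlim7 to Pdlim5 by 0.53 and that of Pdlim5 to Pdlim1 by 0.44. With Pdlim2, Pdlim3 and Pdlim4 added, 3 of the 6 measured genes of the family rose and 3 did not pass (all genes: 7.05% rose). Pdlim2 rose by 0.70 ± 0.074 (0.000584), and Pdlim3, a protein of the muscle Z-disc, was at -0.30 (0.0886).

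Lmo7 and Lima1 encode proteins of cell junctions. Lmo7, which binds afadin at adherens junctions and emerin at the nuclear envelope, was read at log2 signals of 6.62, 6.47 and 6.75 in control and 6.72, 6.79 and 6.84 in overexpression. The lowest overexpression array lay below the highest control array, and the difference of 0.17 (95% interval -0.033 to 0.37) did not pass (limma adjusted p = 0.289). Lima1, also called EPLIN, which bundles actin filaments and ties them to cadherin complexes through alpha-catenin, was read at 7.32, 7.33 and 7.18 in control and 7.19, 7.23 and 7.13 in overexpression. It was the only one of the 10 with a lower mean in overexpression, at -0.093 (95% interval -0.27 to 0.079), and it did not pass (0.51).

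The proteins that these LIM proteins bind were read as a list of 8 genes, chosen, like all lists, with earlier results known. Of these, 3 rose and 5 did not pass, where 7.05% of all genes rose. Actn1, the alpha-actinin of stress fibres, rose 2.80-fold (1.49 ± 0.072 on the log2 scale, SE, limma adjusted p = 7.14e-06). Afdn and Emd, the genes of afadin and emerin, rose by 0.32 ± 0.082 (0.0433) and 0.31 ± 0.071 (0.0287). Both lost their calls when control replicate 1, 2 or 3 or overexpression replicate 1 or 2 was left out and with a replicate block, and Emd also when overexpression replicate 3 was, with adjusted p from 0.052 to 0.144 in these fits. Actn4 and Ctnna1, the genes of another alpha-actinin and of alpha-catenin, were at 0.21 (0.137) and 0.29 (0.051) without passing. Actn3 and Ctnnb1, at 0.22 (0.12) and 0.023 (0.879), did not pass either. Actn2, also an alpha-actinin gene, was the only 1 of the 8 with a lower mean, at -0.37 (0.0987) without passing. With genes below the 30th percentile dropped, a trended and robust prior or array weights, 1 partner gene was called lower.

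Other LIM proteins of the actin and adhesion machinery were read from a list of 39 genes, of which 38 were measured. Of these, 11 rose, 0 fell and 27 did not pass in limma, where 7.05% of all genes rose and 3.25% fell. At an unadjusted p under 0.05 there were 17 higher and 1 lower of the 38 (all genes: 14.1% and 10.4%). Their median difference was 0.12 on the log2 scale. The largest rises were those of Lpp (1.99 ± 0.10, SE, limma adjusted p = 9.90e-06), a zyxin relative of focal adhesions, of Tes, the actin-binding protein testin (1.45 ± 0.082, 1.54e-05), and of Tgfb1i1, the paxillin relative Hic-5 (1.24 ± 0.097, 0.0001). Lpp was read at 7.19, 7.20 and 7.23 in control and 9.37, 9.24 and 8.97 in overexpression, with no overlap. Its 3 probe sets differed, at 1.99, 1.60 and 0.57, the last without passing (adjusted p over all probe sets 0.1), and their mean gave Lpp a rise of 1.38, below that of Tes. Zyx, the gene of zyxin, rose by 0.94 and Lasp1, which binds actin at membrane ruffles, by 0.55. Rises also passed for Pdlim2, Crip2, Limk2, Mical1, Crip1 and Pxn, at 0.37 to 0.70. The count was 7 without control replicate 1, where Crip1, Crip2, Pxn and Mical1 lost their calls (adjusted p from 0.0557 to 0.106). These 4 genes also lost them without at least 2 other arrays each (0.0503 to 0.107).

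LIM-only and LIM-homeobox proteins carry LIM domains but work in the nucleus and not on actin. Of their 15 measured genes, 0 passed in limma, as against 10.3% of all genes. Their mean log2 signals in control ran from 3.42 (Lmo3) to 7.66 (Lmo4). Most of these means lay below the array medians of 5.54 to 5.62. Genes at background could not be called, and whether these genes were expressed was not tested. At an unadjusted p under 0.05 there were 0 higher and 3 lower of the 15, beside 14.1% higher and 10.4% lower over all genes, and their median was -0.12. Isl2, a motor neuron factor, had the smallest p (-0.25 ± 0.092 on the log2 scale, SE, adjusted p = 0.135). The lists were not tested against each other.

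**Figure D4:**
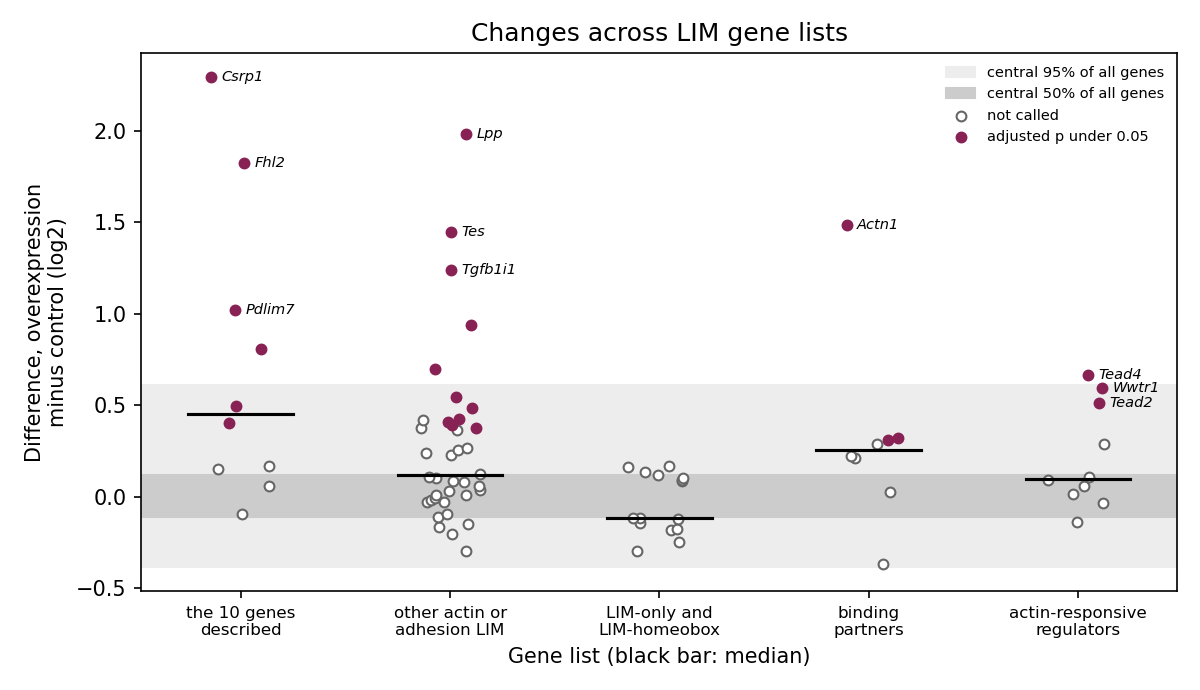
Differences, overexpression minus control (log2), for the 10 LIM genes described, other LIM genes of actin and adhesion, nuclear LIM genes, binding partners and actin-responsive regulators, each point a gene, filled where adjusted p was under 0.05, with black bars at the medians and grey bands for all genes. The medians are 0.45, 0.12, -0.12, 0.26 and 0.098, and Csrp1, Fhl2 and Lpp lie highest.

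The genes with profiles most like Csrp1, by root mean square distance over the 6 arrays after each profile was centred on its own mean, were Anxa3 (0.065), Lgals1 (0.0745), Anxa1 (0.0957), Igf2 (0.102) and Flnc (0.105), in log2 units. Anxa3 and Anxa1 encode phospholipid-binding annexins, Lgals1 a galactoside-binding lectin, Igf2 a growth factor and Flnc a filamin of muscle. Their rises were 2.29, 2.43, 2.21, 2.22 and 2.11 in the same order, beside 2.29 for Csrp1. Such a profile is set almost wholly by the difference between the groups, so the likeness is a description over 6 arrays of 2 groups.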

How the data were processed

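RNA from 6 samples (3 control, 3 Prmt6 overexpression) was measured on 1 Affymetrix array each, from 5 ug of total RNA per the labels' protocols. The deposited values are log2 signals made by RMA, per the submitters' processing notes. RMA equalizes the distributions of the arrays and so hides changes common to most genes. For its version and settings: not given in the sources used here. Detection calls were not used, so a low signal cannot be told from background. Precision is limited by the small number of arrays.

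Of 35556 probe sets, 21789 had 1 symbol in the platform annotation of 2016, 1621 had several and 12146 were not named. Each gene was represented by the brightest, on average, of its single-symbol probe sets. The groups were compared by limma 3.58.1 under R 4.3.3 (lmFit, eBayes, two-sided, no filter), and p-values were adjusted over 19938 genes by the Benjamini-Hochberg method. The procedure was tested on simulated data.

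The 10 genes and all gene lists were chosen with earlier results of these data known. The genes named are the 10, Prmt6, up to 3 passing genes of each further list (4 for cell type markers) with the largest difference, or else the one with the smallest p, and the 5 nearest to Csrp1. Other genes named were chosen after their values were seen. The fits were repeated with a replicate block, without each array, with filters at the 30th percentile and the median of gene means, centring arrays on medians, quantile normalization, the mean of probe sets, each probe set alone, a trended and robust prior and array weights. A planned comparison of protein sequences was not run.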

Additional observations from a re-analysis of the deposited data

How the results depend on the processing

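Under the 14 alternatives that refit all genes, 6 of the 10 LIM genes rose and 0 fell, except that 5 rose without control replicate 1 and without overexpression replicate 2. Differences ranged from 2.24 to 2.34 for Csrp1, 1.78 to 1.89 for Fhl2, 0.98 to 1.07 for Pdlim7, 0.77 to 0.85 for Fhl1, 0.45 to 0.54 for Pdlim5 and 0.34 to 0.45 for Fhl3 (adjusted p from 0.00131 to 0.0629). None of Csrp2, Pdlim1, Lmo7 and Lima1 passed under any of these, with adjusted p of at least 0.0627, and Pdlim1 ran from -0.01 to 0.105, changing sign without control replicate 1 (-0.01) and with quantile normalization (-0.0017). Over all genes the count of calls was 2052, ran from 1142 to 1995 with 1 array left out, and was 3176 with a trended and robust prior. Rises, 1405 in all, ran from 862 to 1232 with 1 array left out. Falls, 647 in all, ran from 280 to 763 with 1 array left out and were 383 with the replicate block, 1115 with a trended and robust prior, 1098 with array weights, and 990 and 1079 when genes below the 30th percentile or the median were dropped. Rises made up 68.5% of the calls and 80.4% with arrays centred on medians. Centring moved the median of all genes to 0.047. Rises among the other cytoskeletal LIM genes numbered 11 in all and ran from 7 to 10 with 1 array left out, and 1 of these genes fell when genes below the 30th percentile were dropped. The cause of these changes was not tested, beyond the fewer arrays or genes in the fits that leave some out. Same-numbered arrays of the groups did not deviate together (r = -0.019, -0.0158 and -0.117 over genes). With 3 arrays per group these values cannot decide whether the numbers pair the samples, and the labels state no pairing. Under the replicate block all 6 calls among the 10 genes were kept, while those of Prmt6 (adjusted p = 0.0615), Afdn (0.0779), Emd (0.0813), Nanog (0.0615), Sox2 (0.116) and Tdgf1 (0.0666) were not. Smtn (0.104), a smooth muscle marker, also lost its call, as did Crip1 (0.0761), Pxn (0.078) and Mical1 (0.0656). Of the 13 measured fibroblast markers, 4 rose with the block, against 7 without it.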
